A study of Mus musculus with 4 samples.

Results

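Neutrophils from mice that lack S100a8 in their blood cells were compared between Lewis lung carcinoma (LLC) tumors and bone marrow. These knockout (KO) mice had the genotype S100a8 fl/fl Vav-Cre+/-, in which Cre under the Vav promoter removes the floxed gene across blood-forming cells rather than in neutrophils alone. Marrow came from mice without a tumor, and tumors grew from the LLC mouse line. The same 2 tissues of floxed mice without Cre (S100a8 fl/fl Vav-Cre-/-, WT) are given beside them, and the floxed alleles are common to all groups. No treatment is recorded. Leukocytes, taken as cells carrying CD45, were sorted and profiled by droplet single-cell RNA sequencing, and each of the 4 groups is 1 library pooled from 3 mice. With 1 library a side, the differences described here have no replicates and were not tested. Marrow and tumor here also differ in mice, in tumor burden and in the software version written in the deposited matrices, and these cannot be told apart.

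Members were chosen by thresholds on measured RNA. A barcode was kept if it showed 200 genes or more and no more than 10% of mitochondrial UMIs (unique molecular identifiers, each standing for 1 captured RNA molecule). In marrow it then needed S100a9 at 4% of its UMIs or more, a Csf3r UMI, and the precursor granule genes Ngp, Camp and Ltf together under 2% of UMIs other than S100a9. In tumor it needed S100a9 at 0.5% or more, a Csf3r UMI, and at most 5 UMIs of the macrophage genes C1qa, C1qb and C1qc. These rules took 2955 of 10853 kept barcodes in KO marrow (27.2%) and 2851 of 11413 in KO tumor (25%), 5806 members among 41851 kept barcodes of the series. The same rules took 1284 barcodes of WT marrow and 156 of WT tumor. The thresholds differ between tissues, so the levels of S100a9, Csf3r, Ngp, Camp, Ltf and C1q below are descriptions that the rule itself fixed in part.

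Neutrophils are short-lived phagocytes that mature in bone marrow, where they build their granules in order: primary granules in promyelocytes, then secondary granules, then gelatinase granules in nearly mature cells. CXCR4 holds them in marrow and CXCR2 draws them into blood along gradients of CXC chemokines. In tumors they can make chemokines, interleukin-1 and angiogenic factors and can restrain T cells, and S100A8 with S100A9 forms calprotectin, an abundant protein of their cytosol.

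The gate held neutrophil RNA in both tissues. Neutrophil markers outside the rule are given as shares of KO marrow and KO tumor barcodes with a UMI, without thinning. Msrb1 was seen in 96.6% and 90.5%, Mxd1 in 88.5% and 98.1%, Hdc in 77.2% and 96.7%, and Il1r2 in 42.8% and 94.0%. G0s2 was seen in 24.4% and 92.7%, Cxcr2 in 95.6% and 60.3%, Retnlg in 97.8% and 55.2%, and Ly6g in 40.6% and 7.26%. Median depth was 1871 UMIs per barcode in KO marrow and 4055 in KO tumor, against 1458 and 2618 in WT. S100a9 took a median of 13.6% of the UMIs of a KO marrow barcode and 3.87% in KO tumor. S100a8, the deleted gene (ENSMUSG00000056054, GRCm38 chromosome 3, 90668978 to 90670035), had 1 UMI in gated KO marrow and 71 in gated KO tumor, of which 69 came from 1 barcode, against 278340 and 10074 in WT. Just inside the tumor threshold (0.5 to 0.6% S100a9, 53 barcodes) 49.1% had a Cxcr2 UMI, 7.55% a Cd3e UMI, 20.8% a UMI of the macrophage gene Adgre1 and 79.2% a Cd74 UMI. Just outside it (0.4 to 0.5%, 59 barcodes) the shares were 37.3%, 5.08%, 13.6% and 67.8%, so RNA of other cell types was present on both sides. At the marrow threshold the Cxcr2 shares were 92% of 50 barcodes inside (4 to 4.5%) and 82.1% of 56 outside (3.5 to 4%). The libraries shared 21 to 46 barcode sequences pair by pair, and 1 gated barcode was common to KO marrow and KO tumor.

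Other cells contributed some RNA to the gate. Tumor barcodes over 10000 UMIs, 358 of them, held 35.7% of gated tumor UMIs, and 259 of these were marked as doublets. In marrow, 50 barcodes with primary granule genes at 0.5% or more held 10.7% of gated marrow UMIs. The summed level of 14 macrophage markers stood at 289 CPM (UMIs scaled to a total of 1000000) in gated marrow and 1571 in gated tumor, against 4742 in the other tumor barcodes. T cell markers stood at 48.1 and 251 CPM, dendritic cell markers at 249.7 and 1563, B cell markers at 426 and 18.8, and erythroid markers at 2282 and 6.69. Monocyte markers, Lyz2 and Chil3 among them, stood at 6496 and 4581 CPM, against 14330 in the other tumor barcodes. Without barcodes over 10000 UMIs the tumor gate held 1615 CPM of them. Barcodes with a UMI of the monocyte marker Ms4a6c were 13.4% of the tumor gate and held 30.2% of its UMIs. In marrow these shares were 3.25% and 10.4%. At 0 UMIs were the macrophage marker Folr2 and the dendritic cell marker Xcr1 in gated marrow, and 4 of 10 B cell markers and 2 of 8 erythroid markers in gated tumor. The part of these cells in the results was not tested. Values under 3 further selections are given where they move the fold of a named gene by more than 1.5 times: a strict gate (S100a9 at 4% or more in both tissues, leaving 1379 tumor barcodes), the gate without doublets (2548), and the gate without barcodes over 10000 UMIs (2493). List counts and medians also moved under these selections and are given for some lists only.

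Levels in CPM are over all gated barcodes of a library, with S100a8 and S100a9 left out of the total, and a fold compares these pooled levels. Intervals in parentheses are exact 95% intervals that cover counting error only. A gene was measured with at least 50 UMIs over both tissues and 10 CPM in 1 of them, and counted as higher or lower past 2-fold. Of 7012 measured genes, 891 (12.7%) were higher in KO tumor neutrophils and 3483 (49.7%) were lower. The median gene lay at −0.99 on the log2 scale, and 62.4% of genes lay past 2-fold either way. With all ratios scaled to that median, 1741 genes were higher and 1438 lower. Both splits describe the same libraries, and the lists below are read against the median gene. Where no share stands beside it, a KO count over all measured members compares with 12.7% of all genes higher and 49.7% lower. Counts with scaling to the median gene compare with 24.8% higher and 20.5% lower. A gene that passed the filter through 1 tissue alone was bound to differ.

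**Figure D1:**
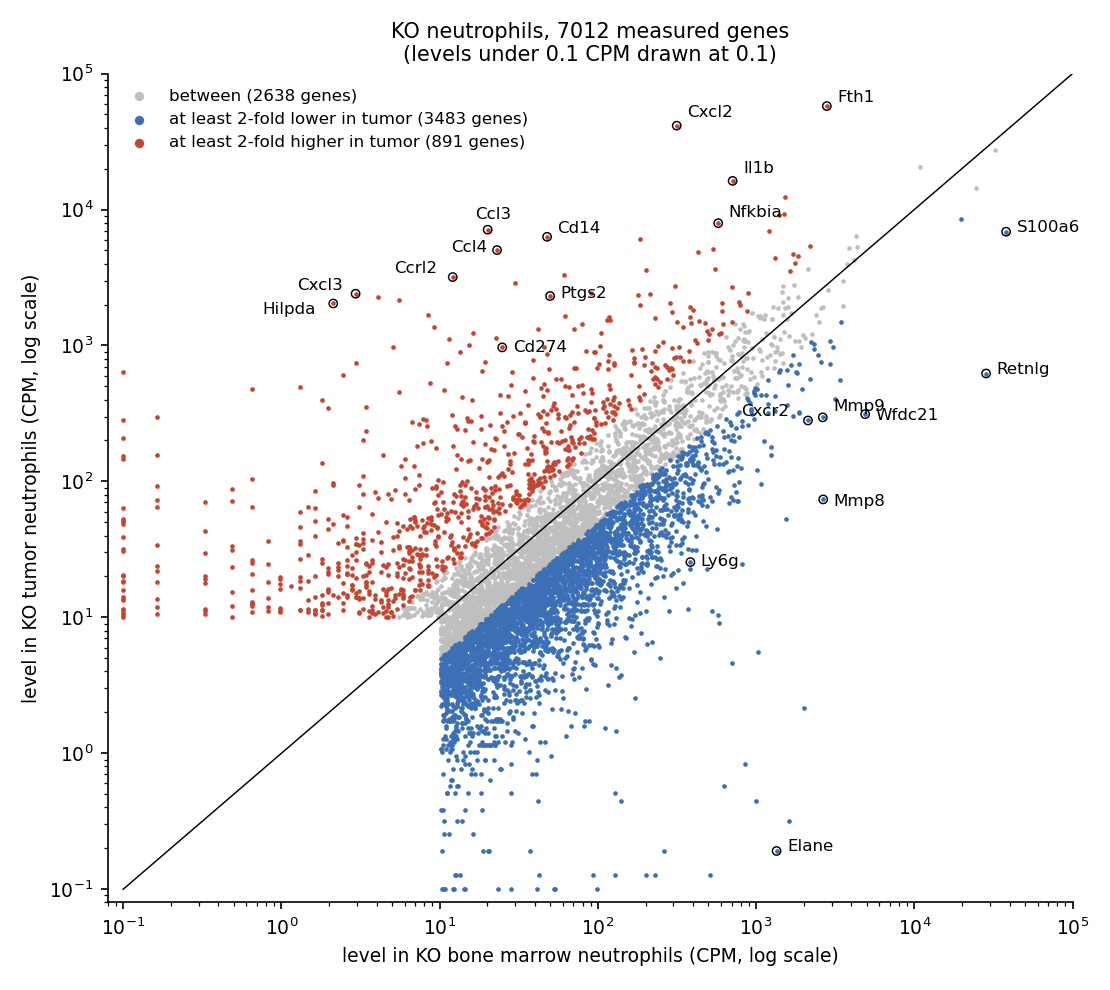
Level of each of the 7012 measured genes in KO bone marrow neutrophils (horizontal axis, CPM, log scale) against KO tumor neutrophils (vertical axis, CPM, log scale). Red points are the 891 genes at least 2-fold higher in tumor, blue points the 3483 at least 2-fold lower, grey the rest, and the line marks equal levels. Chemokine and cytokine genes lie far above the line and granule genes far below it.

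**Figure D2:**
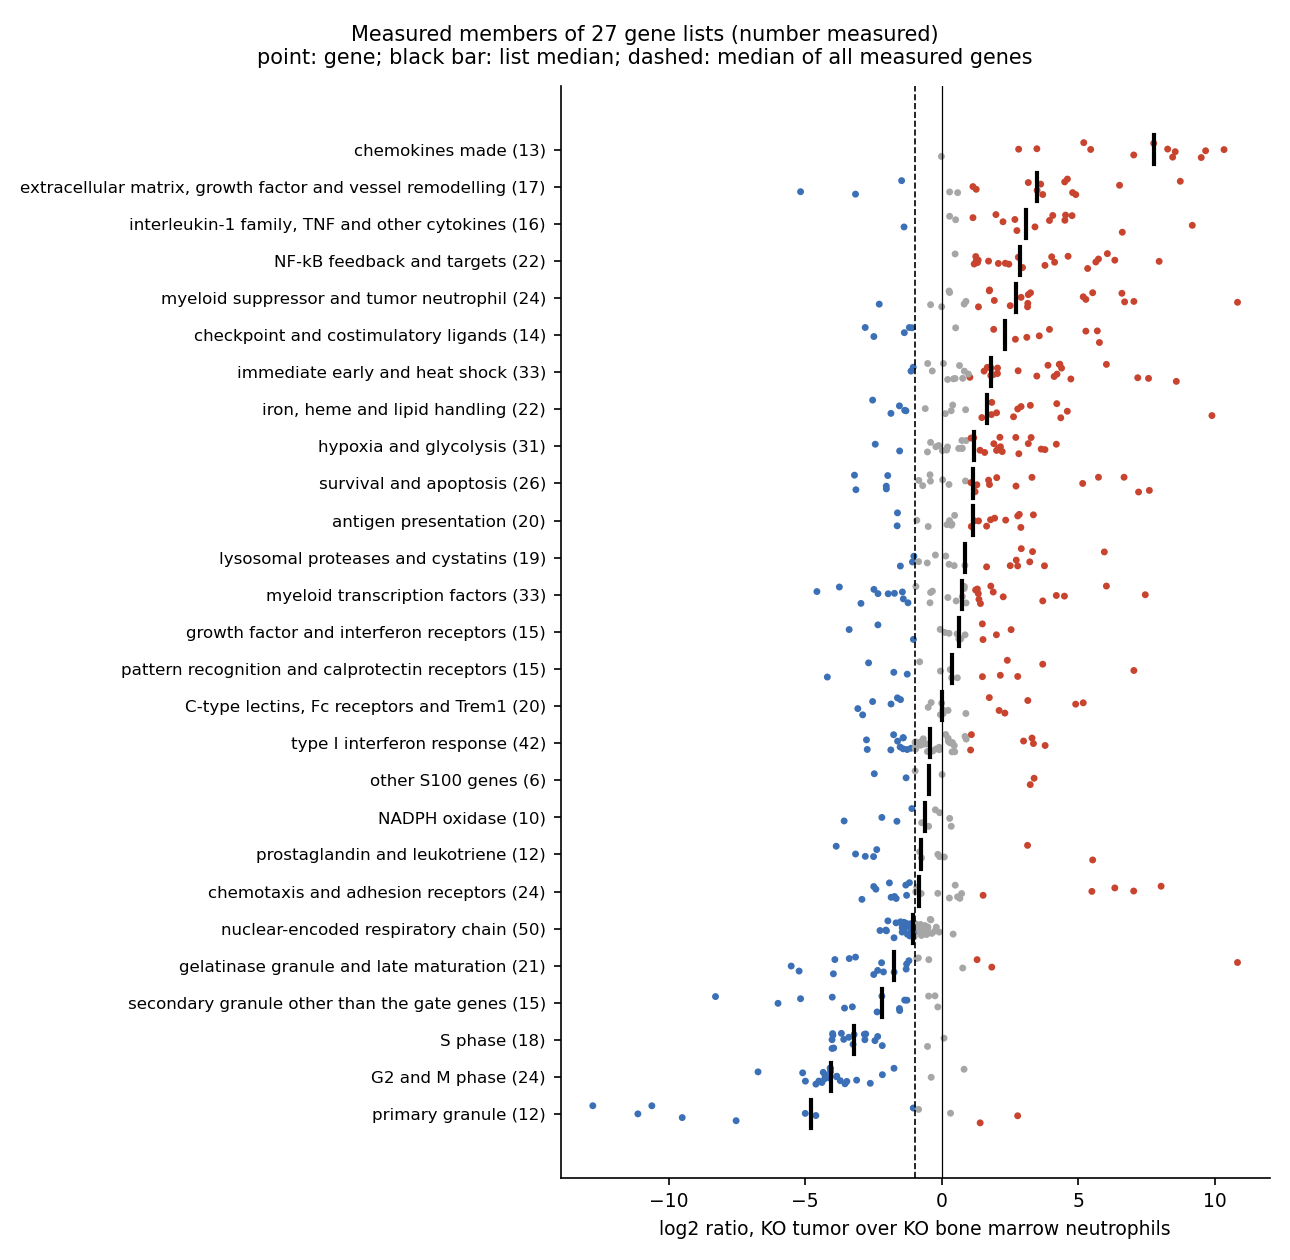
Log2 ratio of KO tumor to KO marrow neutrophils (horizontal axis) for the measured members of 27 gene lists, each point a gene and each black bar the list's median. The solid line marks no difference and the dashed line the median of all measured genes at −0.99. Chemokines lie at the top, with a median of 7.77, and the primary granule list at the bottom, with −4.80, a place it lost (−0.57) without 50 marrow barcodes rich in its genes.

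Chemokine RNA separated the tissues most among the 27 lists. Of 16 chemokine genes, 13 were measured and 12 were higher in tumor, against 12.7% of all measured genes, and none was lower. Only 6 members were at least as high as in the other barcodes of the tissue, and 5 of these were higher, against 16.2% of all such genes. Ccl3, which encodes a chemokine that draws monocytes and T cells (ENSMUSG00000000982, GRCm38 chromosome 11, 83647844 to 83649355), stood at 20.1 CPM in marrow and 7101 CPM in tumor, 353-fold higher (296 to 425), or 561-fold without doublets. WT neutrophils held 17.7 and 1761 CPM, so that the tumor library lay above the marrow library in both genotypes. Ccl4, a related chemokine encoded beside it, stood at 23.1 CPM in marrow and 5032 CPM in tumor, 218-fold higher (185 to 259), with 12.4 and 1827 CPM in WT. The CXCR2 ligands Cxcl1, Cxcl2 and Cxcl3, which draw further neutrophils, were all higher. Cxcl2 stood at 315 CPM in marrow and 41359 CPM in tumor, 131-fold higher (126 to 137), with 240.3 and 19019 CPM in WT. Cxcl3 stood at 2.94 CPM in marrow and 2401 CPM in tumor, 815-fold higher (516 to 1376). Cxcl1 had no UMI in gated marrow and 639 CPM in tumor, at least 1302-fold higher against a floor of 3 UMIs over the marrow gate, or 422-fold without barcodes over 10000 UMIs.

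The promoters of these 3 neighbors are shown because they share 1 run of letters. Each line gives 220 bases, from 250 to 31 bases before the RefSeq start of the gene (GRCm38.p6, plus strand), 5′ to 3′, with matches to the NF-kB consensus in capitals. They lie at chr5:90890995-90891214 (Cxcl1), chr5:90903649-90903868 (Cxcl2) and chr5:90785851-90786070 (Cxcl3).
Cxcl1: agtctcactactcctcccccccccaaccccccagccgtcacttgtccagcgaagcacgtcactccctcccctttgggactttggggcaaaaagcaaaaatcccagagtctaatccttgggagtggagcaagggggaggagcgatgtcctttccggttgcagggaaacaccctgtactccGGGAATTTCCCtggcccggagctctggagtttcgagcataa
Cxcl2: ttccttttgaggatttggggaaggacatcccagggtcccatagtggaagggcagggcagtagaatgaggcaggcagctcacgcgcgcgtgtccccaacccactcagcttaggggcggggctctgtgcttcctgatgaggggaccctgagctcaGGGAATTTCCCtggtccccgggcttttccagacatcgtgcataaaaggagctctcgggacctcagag
Cxcl3: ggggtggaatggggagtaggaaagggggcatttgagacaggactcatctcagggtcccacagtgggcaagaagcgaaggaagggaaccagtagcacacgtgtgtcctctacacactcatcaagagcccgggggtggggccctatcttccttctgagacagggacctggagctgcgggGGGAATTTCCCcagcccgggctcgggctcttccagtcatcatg
The capital run GGGAATTTCCC begins 71, 97 and 73 bases before the start of Cxcl1, Cxcl2 and Cxcl3, and holds 2 overlapping matches in each. This exact run of 11 bases was in 10 of 27025 RefSeq promoter windows of the same length (0.0370%), on either strand, and the consensus in any form was in 1659 (6.14%). NF-kB is the transcription factor that signals from Toll-like, interleukin-1 and TNF receptors switch on. Among the NF-kB feedback genes described below, 19 of 23 had a promoter window and 6 (31.6%) held the consensus, Tnfaip3 with 1 match, against 7.93% of the 5640 measured genes with a window. That list was put together from known NF-kB targets. Ccl3, Nfkbia, Icam1, Il1b and Cd274 had no match in this window. A match is a description of letters and no measure of binding.

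Other chemokines showed the same direction. Ccl2, a monocyte attractant, stood at 0.654 CPM in marrow and 477 CPM in tumor, 729.5-fold higher (285 to 2678), or 258-fold with the strict gate and 248-fold without barcodes over 10000 UMIs. Its level in the other tumor barcodes, 1259 CPM, was above that of the neutrophils. Cxcl10, an interferon-induced ligand of CXCR3, stood at 1.31 CPM in marrow and 493 CPM in tumor, 377-fold higher (191 to 873). The measured chemokine past no threshold was Ccl6, named after its values were seen, at 1569.8 CPM in marrow and 1559 CPM in tumor. T cell barcodes of tumor held these RNAs too. Cxcl2 stood at 5115 CPM in 1939 tumor T cells (barcodes outside the gate with at least 2 UMIs of Cd3d, Cd3e and Cd3g) against 22.5 in 307 marrow T cells. Ccl3 stood at 448 and 6.83 CPM in the same cells, which can also make it themselves. The chemokine list's median log2 ratio between tumor and marrow T cells was 6.03, against 7.77 in the neutrophils. The part of free RNA in the neutrophil values was not tested.

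Cytokines of the interleukin-1 and TNF families were mostly higher. In this list, 16 of 21 members were measured, with 13 higher and 1 lower, and the median log2 ratio was 3.09. Il1b, which encodes the inflammasome-processed interleukin-1 beta, stood at 710.4 CPM in marrow and 16241 CPM in tumor, 22.9-fold higher (22.2 to 23.6), with 768 and 13648 CPM in WT. Il1a, the alarmin interleukin-1 alpha, had no UMI in marrow and 285 CPM in tumor, at least 581-fold higher. The inhibitors of the same pathway were higher as well. Il1rn, the receptor antagonist, stood at 184 CPM in marrow and 1971 CPM in tumor, 10.7-fold higher (10.1 to 11.4), and Il1r2, the decoy receptor, at 316 CPM in marrow and 1499.9 CPM in tumor, 4.75-fold higher (4.53 to 4.98). Pathway activators and inhibitors thus stood higher side by side. Tnf stood at 18.2 CPM in marrow and 305 CPM in tumor, 16.8-fold higher (13.9 to 20.5). Il23a, a subunit of interleukin-23, had 48.2 CPM in tumor and no UMI in marrow, and stood at 9.32 CPM in the other tumor barcodes. The list's lower member was Il18rap, a subunit of the interleukin-18 receptor, named after its values were seen, at 269 CPM in marrow and 104 CPM in tumor.

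Genes that NF-kB induces, most of which feed back on it, were higher nearly throughout. Of 23 genes, 22 were measured, 21 were higher and none was lower, with a median log2 ratio of 2.89 (in WT, 2.18 over 22 genes measured in both genotypes, 16 of them higher, against 13.1% of all genes measured in WT). Nfkbia, the inhibitor that holds NF-kB in the cytosol, stood at 576 CPM in marrow and 7937 CPM in tumor, 13.8-fold higher (13.3 to 14.3), with 756 and 4359 CPM in WT. Tnfaip3, the ubiquitin-editing enzyme A20, stood at 13.4 CPM in marrow and 902 CPM in tumor, 67.3-fold higher (54.2 to 84.7), and Traf1, an adaptor of TNF receptors, at 2.94 CPM in marrow and 737 CPM in tumor, 250.4-fold higher (158 to 423). All 3 restrain or relay this pathway and lay higher in tumor. Icam1, an adhesion ligand, stood at 5.56 CPM in marrow and 452 CPM in tumor, 81.2-fold higher (58.1 to 117). T cells differed between the tissues likewise, and the list's median log2 ratio between tumor and marrow T cells was 2.22.

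**Figure D3:**
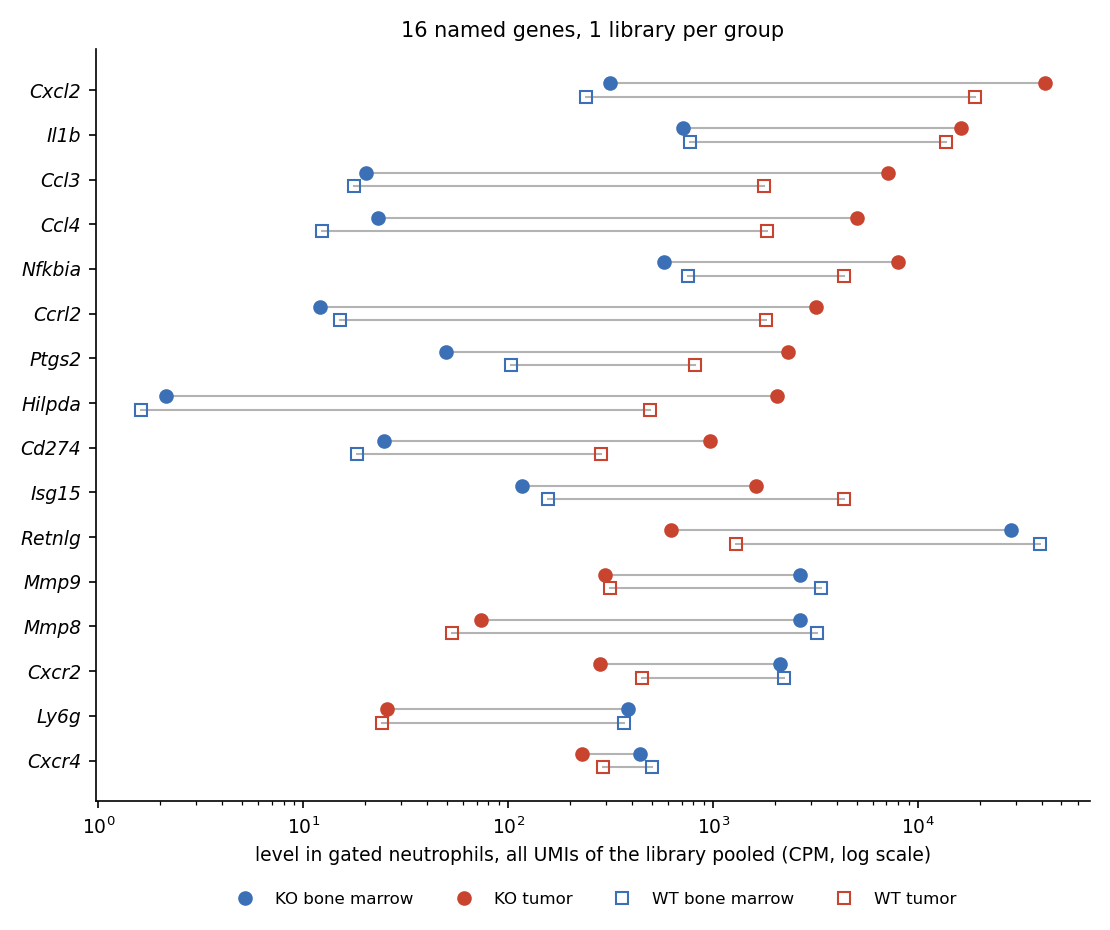
Levels of 16 named genes (vertical axis) in gated neutrophils of the 4 libraries (horizontal axis, CPM, log scale). Filled circles are KO and open squares WT, blue is bone marrow and red tumor, and a grey line joins the 2 libraries of a genotype. In both genotypes the genes from Cxcl2 to Isg15 lie higher in tumor and those from Retnlg to Cxcr4 lie lower.

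The share of barcodes that held each RNA differed widely between genes. Every cell was thinned to 1000 UMIs other than S100a8 and S100a9, leaving out shallower ones (321 of KO marrow and 15 of KO tumor neutrophils), and shares with a UMI were compared with B cells of marrow and T cells of tumor, which should lack most of these RNAs. Cxcl2 was seen in 21.1% (19.6 to 22.8) of marrow and 99.5% (99.1 to 99.7) of tumor neutrophils, against 1.42% of marrow B cells and 41.2% of tumor T cells. Ccl3 was seen in 1.44% (1.02 to 1.97) and 78.8% (77.3 to 80.3), against 0.406% and 12%. Il1a was seen in 18.3% of tumor neutrophils and in 0 of 2634 from marrow (exact interval up to 0.140%). Before thinning, Ccl3 was seen in 2.37% and 88.8%. Cd274 was seen in 2.66% and 49.8%, against 1.42% and 9.72%. The shares of tumor neutrophils lay above those of tumor T cells for Cxcl2, Ccl3 and Cd274, while the marrow shares of Ccl3 and Cd274 lay within 2 percentage points of the marrow B cells. Genes of the mature marrow cell went the other way. Retnlg was seen in 97.0% (96.2 to 97.6) of marrow and 31.5% (29.8 to 33.2) of tumor neutrophils, Cxcr2 in 88.4% and 26.3%, and Mmp8 in 75.8% and 6.24%. Marrow B cells held Retnlg in 23.9% and tumor T cells in 0.258%. Median depths before thinning, on the same genes, were 1593 and 3787 UMIs for the neutrophils and 2115 and 6884 for the B and T cells.

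**Figure D4:**
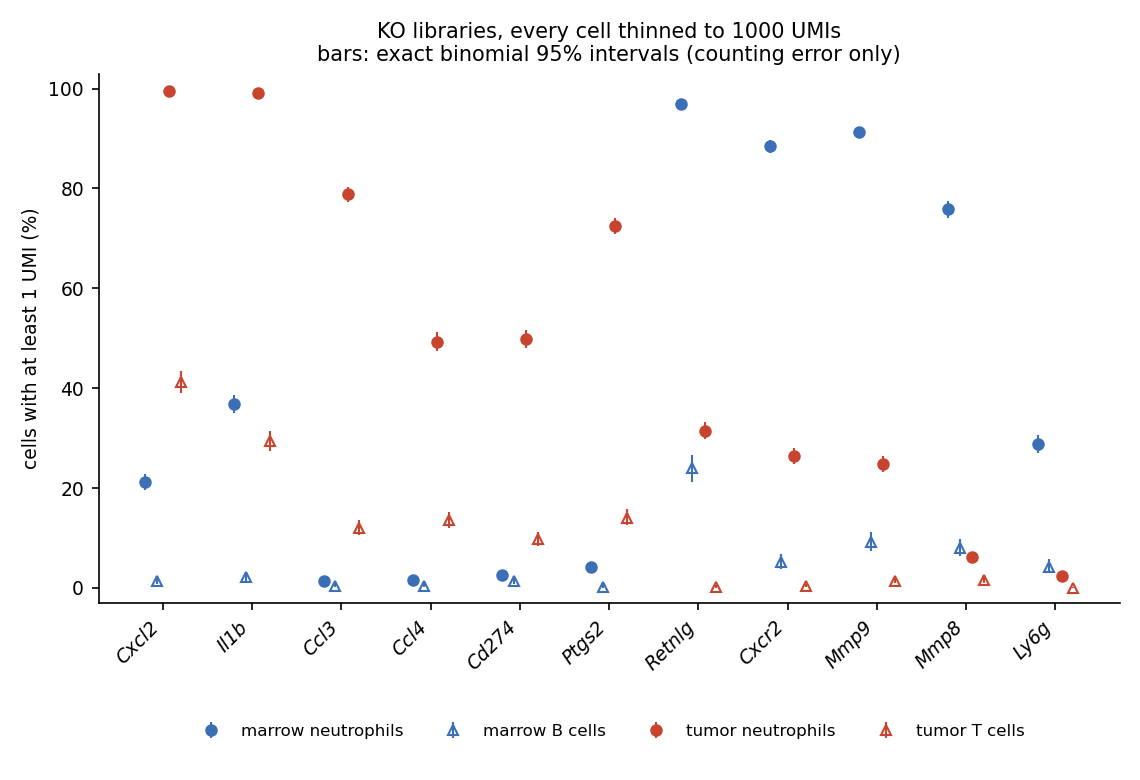
Share of cells with at least 1 UMI (vertical axis, percent) for 11 genes in the KO libraries, with every cell thinned to 1000 UMIs. Filled circles are gated neutrophils and open triangles are marrow B cells or tumor T cells, blue is marrow and red tumor, and bars are exact binomial 95% intervals. Cxcl2 reaches 99.5% of tumor neutrophils and 41.2% of tumor T cells, while Mmp8 stands at 6.24% of tumor neutrophils.

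Within the tumor gate, marrow-type and tumor-type RNA met in the same barcodes. Among 2836 thinned barcodes, Ccl3 was seen in 71.8% (68.7 to 74.7) of those with a Retnlg UMI and 82.0% (80.3 to 83.7) of those without. Ccl4 was seen in 56.7% of barcodes with a Ccl3 UMI and 21.8% of those without. These are shares within 1 library at 1 depth, and they carry no test.

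Receptors for chemotaxis and adhesion were more often lower than higher, as measured genes were in general. In this list, 24 of 24 members were measured, with 5 higher and 10 lower, against 12.7% and 49.7% of all genes. Its median log2 ratio was −0.83, close to the all-gene median, and turned to 0.16 with scaling to that median. Cxcr2 stood at 2127 CPM in marrow and 281 CPM in tumor, 7.58-fold lower (7.32 to 7.84), with 2216 and 449.6 CPM in WT. Cxcr4, the marrow retention receptor, stood at 440.4 CPM in marrow and 228 CPM in tumor, a difference under 2-fold. Those higher included receptors of inflammation. Ccrl2, a chemerin-binding receptor without known signaling, stood at 12.1 CPM in marrow and 3185 CPM in tumor, 263-fold higher (209.6 to 335), with 15 and 1811 CPM in WT and 343 CPM in the other tumor barcodes. C3ar1, the complement C3a receptor, stood at 0.327 CPM in marrow and 42.9 CPM in tumor, 131-fold higher (36.2 to 1085), or 30.2-fold with the strict gate.

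Receptors for growth factors, interferons and microbial products held genes of both directions, and the medians of their lists lay above that of all genes. Of the growth factor and interferon receptors, 15 of 17 members were measured, with 4 higher and 3 lower, or 11 and 2 with scaling to the median gene. Il17ra, the interleukin-17 receptor, stood at 754 CPM in marrow and 71.9 CPM in tumor, 10.5-fold lower (9.82 to 11.2), and Il6ra at 257 CPM in marrow and 50.9 CPM in tumor, 5.05-fold lower (4.63 to 5.50). Tnfrsf1b, the second TNF receptor, stood at 116 CPM in marrow and 675 CPM in tumor, 5.83-fold higher (5.41 to 6.30). For pattern recognition, 15 of 20 members were measured, with 6 higher and 4 lower, or 9 and 2 with that scaling. Cd14, the lipopolysaccharide co-receptor, stood at 47.8 CPM in marrow and 6296 CPM in tumor, 132-fold higher (118 to 148), with 16.1 and 4115 CPM in WT, and Nlrp3, the inflammasome sensor, at 179.9 CPM in marrow and 2342 CPM in tumor, 13-fold higher (12.3 to 13.8). Ager, a receptor for S100 proteins, stood at 20.9 CPM in marrow and 1.15 CPM in tumor, 18.2-fold lower (11.1 to 31.8). Receptors of both directions thus stood in each list. Of the C-type lectins and Fc receptors, 20 of 21 members were measured, with 6 higher and 6 lower, or 10 and 3 with that scaling. Clec4e, the Mincle receptor, stood at 308 CPM in marrow and 2743 CPM in tumor, 8.91-fold higher (8.51 to 9.34), and Treml2 at 187 CPM in marrow and 22.3 CPM in tumor, 8.41-fold lower (7.45 to 9.51). Siglecf, a marker given to some tumor neutrophils, stood at 12.4 CPM in marrow and 12.4 CPM in tumor.

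Secondary granule genes were mostly lower, while the counts for the other granule classes depended on the barcodes taken. For gelatinase granules and late maturation, 21 of 23 members were measured, with 3 higher and 14 lower, against 49.7% of all genes lower, with a median log2 ratio of −1.74. With the strict gate 12 of 21 were lower, against 63.1% of all genes, and the list's median lay 0.20 above the all-gene median instead of −0.75 from it. Retnlg, a resistin-like gene of mature marrow neutrophils (ENSMUSG00000022651, chromosome 16, 48872621 to 48874496), stood at 28399 CPM in marrow and 622 CPM in tumor, 45.7-fold lower (44.7 to 46.6), or 21.8-fold with the strict gate. WT held 39431 and 1286 CPM. Mmp9, gelatinase B, stood at 2638 CPM in marrow and 296 CPM in tumor, 8.92-fold lower (8.63 to 9.21), or 5.88-fold with the strict gate. Ly6g, the surface antigen of mouse neutrophils, stood at 384 CPM in marrow and 25.5 CPM in tumor, 15.1-fold lower (13.5 to 16.8), or 7.80-fold with the strict gate. These genes mark the last steps of maturation in marrow, and all 3 lay lower in tumor under both gates. Wfdc21 stood at 4887 CPM in marrow and 312 CPM in tumor, 15.6-fold lower (15.2 to 16.1), or 8.59-fold with the strict gate. The members that were higher, named after their values were seen, were Slc11a1, Asprv1 and Arg1. For secondary granules beyond the genes of the gate, 15 of 17 members were measured, with 0 higher and 12 lower, against 49.7% of all genes lower. With the strict gate 11 of 15 were lower, against 63.1% of all genes. With scaling to the median gene 8 of 15 were lower, against 20.5%. Mmp8, the neutrophil collagenase, stood at 2653 CPM in marrow and 73.7 CPM in tumor, 36.0-fold lower (33.9 to 38.2), and Cd177 at 582 CPM in marrow and 9.12 CPM in tumor, 63.8-fold lower (54.0 to 76.0). Lyz2, lysozyme, stood at 3531 CPM in marrow and 2979 CPM in tumor, 1.19-fold lower (1.17 to 1.2), and 3.75-fold lower without barcodes over 10000 UMIs; the other tumor barcodes held 9602 CPM. Stfa3, one of several near-identical stefin copies, is uncertain in its assignment and stood at 136 CPM in marrow and 3.63 CPM in tumor.

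Most measured cell cycle genes were lower, though few passed a stricter filter. The direction of the primary granule list against the median gene rested on few marrow barcodes. For primary granules, 12 of 13 members were measured, with 2 higher and 8 lower, and a median log2 ratio of −4.80. Without the 50 marrow barcodes rich in these genes, 9 members were measured, with 3 higher and 4 lower, and the median of −0.57 lay 0.29 above the all-gene median. Elane, neutrophil elastase, stood at 1347 CPM in marrow, with 3 UMIs in tumor, 7041-fold lower (2408 to 34149). Without those 50 barcodes, Elane was 214-fold lower, Mpo, myeloperoxidase, 154-fold instead of 2243-fold, and Prtn3, proteinase 3, 10.5-fold instead of 185-fold. Gfi1, a transcription factor of granulocyte progenitors, stood at 28.8 CPM in marrow and 1.21 CPM in tumor, 23.8-fold lower (14.8 to 40.4), or 4.11-fold without them. Of the S phase genes, 18 of 22 members were measured, with 0 higher and 16 lower, against 49.7% of all genes lower. Of the G2 and M phase genes, 24 of 26 members were measured, with 0 higher and 22 lower. A stricter filter asked for 200 UMIs over both tissues and 50 CPM in 1 of them. Under it, 2 of 4 measured S phase genes and 5 of 6 G2 and M phase genes were lower, against 46.9% of all genes. Without the 50 barcodes rich in primary granule genes, 12 of 14 measured S phase genes and 10 of 12 G2 and M phase genes were lower. Of all genes, 45.8% were lower there. Rrm2, a ribonucleotide reductase subunit, stood at 42.7 CPM in marrow and 2.68 CPM in tumor, 15.9-fold lower (11.5 to 22.6), or 6.2-fold without those barcodes. Ube2c, a mitotic ubiquitin ligase enzyme, stood at 64.9 CPM in marrow and 2.04 CPM in tumor, 31.8-fold lower (22.2 to 47.2), or 19.1-fold. Barcodes with at least 2 UMIs of Mki67 and Top2a were, without thinning, 2.37% of the marrow gate and 1.09% of the tumor gate.

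The other S100 genes were divided. Of 12 S100 genes besides the calprotectin pair, 6 were measured, 2 were higher and 2 lower, against 12.7% and 49.7% of all genes. S100a6, calcyclin, stood at 37982 CPM in marrow and 6864 CPM in tumor, 5.53-fold lower (5.49 to 5.57), or 3.68-fold with the strict gate. WT marrow held 16548 CPM and WT tumor 4157. S100a11 stood at 4175 CPM in marrow and 4218 CPM in tumor. S100a4 stood at 72.4 CPM in marrow and 687 CPM in tumor, 9.48-fold higher (8.62 to 10.4), but the ratio was 0.939 with the strict gate, and the other tumor barcodes held 2673 CPM. S100a10, an annexin partner, stood at 54.3 CPM in marrow and 568 CPM in tumor, 10.5-fold higher (9.37 to 11.7), or 1.5-fold with the strict gate. The list's median log2 ratio of −0.48 turned to 0.51 with median scaling. For the NADPH oxidase, the complex of the respiratory burst, 10 of 10 members were measured. Of these, 0 were higher and 4 lower, against 12.7% and 49.7% of all genes. The oxidase list's median of −0.60 turned to 0.39 with that scaling. Cybb, the catalytic subunit of the oxidase, stood at 692 CPM in marrow and 151 CPM in tumor, 4.57-fold lower (4.34 to 4.80), and 13.3-fold lower with the strict gate.

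Genes named for suppressive and tumor neutrophils were mostly higher. In this list, 24 of 28 members were measured, with 17 higher and 1 lower, with a median log2 ratio of 2.71. Between tumor and marrow T cells the list's median log2 ratio was 2.82. Among the 15 members at least as high as in the other barcodes of the tissue, 10 were higher and 1 lower. The list was compiled from genes described as high in such cells, so its direction is no independent evidence. The member that was lower was Cd84, named after its values were seen. Cd274, PD-L1, the ligand of the T cell inhibitory receptor PD-1, stood at 24.9 CPM in marrow and 968 CPM in tumor, 38.9-fold higher (33.2 to 46.0), with 18.3 and 284 CPM in WT and 159.7 CPM in the other KO tumor barcodes. Ptgs2, cyclooxygenase 2, which starts prostaglandin synthesis, stood at 49.9 CPM in marrow and 2309.8 CPM in tumor, 46.3-fold higher (41.4 to 52.0). The arginine-consuming enzymes, which can starve T cells of this amino acid, differed in how firmly they were seen. Arg2, a mitochondrial arginase, stood at 222 CPM in marrow and 566 CPM in tumor, 2.55-fold higher (2.40 to 2.70). Arg1, the cytosolic arginase, had 1 UMI in marrow and 299.7 CPM in tumor, 1833-fold (329 to 72405), or 168-fold without barcodes over 10000 UMIs. After thinning Arg1 was seen in 3.81% of tumor neutrophils and 4.96% of tumor T cells, a share no higher than in cells that should lack it. The source of this RNA was not tested. Nos2, inducible nitric oxide synthase, had no UMI in marrow and 51.1 CPM in tumor, against 85.1 CPM in the other tumor barcodes. Spp1, osteopontin, stood at 11.4 CPM in marrow and 1114 CPM in tumor, 97.3-fold higher (77.0 to 125).

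Further ligands and growth factors followed. Of the checkpoint and costimulatory ligands, 14 of 20 members were measured, with 8 higher and 5 lower. Among the 10 members at least as high as in the other barcodes of the tissue, 4 were higher and 5 lower. Pdcd1lg2, PD-L2, stood at 1.64 CPM in marrow and 85.2 CPM in tumor, 52.1-fold higher (28.2 to 109), and Lilrb4a, an inhibitory receptor, at 104 CPM in marrow and 1245 CPM in tumor, 11.9-fold higher (11 to 12.9). Of the matrix, growth factor and vessel genes, 17 of 22 members were measured. Of these, 12 were higher and 3 lower, against 12.7% and 49.7% of all genes. Mmp8, Mmp9 and Timp2 were those lower. Vegfa, the vascular growth factor, stood at 22.7 CPM in marrow and 205 CPM in tumor, 9.03-fold higher (7.61 to 10.8), with 268 CPM in the other tumor barcodes. Areg, amphiregulin, had no UMI in marrow and 210.1 CPM in tumor, at least 428-fold higher. Thbs1, thrombospondin 1, stood at 429 CPM in marrow and 4841 CPM in tumor, 11.3-fold higher (10.9 to 11.7), and the other tumor barcodes held 5523 CPM.

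Hypoxia and glycolysis genes were more often higher than lower, and in KO the respiratory chain lay near the median gene. For hypoxia and glycolysis, 31 of 33 members were measured, with 17 higher and 2 lower, against 12.7% and 49.7% of all genes. The list's median log2 ratio was 1.17. Ero1l, an oxidase of the endoplasmic reticulum, stood at 49.1 CPM in marrow and 676 CPM in tumor, 13.8-fold higher (12.3 to 15.5), or 24.0-fold without barcodes over 10000 UMIs. Slc16a3, a lactate exporter, stood at 579 CPM in marrow and 1221 CPM in tumor, 2.11-fold higher (2.04 to 2.19). Bhlhe40, a hypoxia-induced repressor, stood at 15 CPM in marrow and 277 CPM in tumor, 18.4-fold higher (15 to 22.9). For the nuclear-encoded respiratory chain, 50 of 50 members were measured, with 0 higher and 27 lower, against 12.7% and 49.7% of all genes. The list's median of −1.05 was −0.06 from the all-gene median. With the strict gate 43 of 50 were lower, against 63.1% of all genes, and the list's median of −1.71 was −0.21 from the all-gene median. In WT the list's median was −0.22, against −0.60 for all genes measured in WT. Iron and lipid genes held the most abundant RNA of the tumor gate. In that list, 22 of 25 members were measured, with 12 higher and 5 lower. Fth1, ferritin heavy chain, stood at 2798 CPM in marrow and 57630.1 CPM in tumor, 20.6-fold higher (20.3 to 20.9), with 2819.7 and 27271 CPM in WT and 21087 CPM in the other KO tumor barcodes. Ftl1, its light chain, stood at 1490.0 CPM in marrow and 9244 CPM in tumor, 6.2-fold higher (6.07 to 6.34). Hilpda, a hypoxia-induced lipid droplet protein, stood at 2.13 CPM in marrow and 2035 CPM in tumor, 957-fold higher (559.7 to 1798), and at 547 CPM in tumor T cells. Cd36, a fatty acid receptor, stood at 1.64 CPM in marrow and 11.3 CPM in tumor, 6.90-fold higher (3.67 to 14.6), but was 1.52-fold lower with the strict gate.

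In KO, interferon-induced genes were higher about as often as all genes and lower less often, and in WT they leaned higher. Of the type I interferon list, 42 of 46 members were measured. Of these, 6 (14.3%) were higher and 11 (26.2%) lower, against 12.7% and 49.7% of all genes. The list's median log2 ratio in the main gate, −0.42, lay 0.57 above the all-gene median and turned to 0.57 with median scaling. Over the 42 members measured in both genotypes, the KO median was −0.42 and the WT median 0.73. In WT, 19 were higher and 4 lower, against 13.1% and 38.8% of all genes measured in WT. The difference between genotypes was not tested, and the WT tumor gate held more monocyte and dendritic cell marker RNA than the KO tumor gate. Isg15, a ubiquitin-like interferon product, stood at 117 CPM in marrow and 1623 CPM in tumor, 13.8-fold higher (12.8 to 14.9), and in WT at 156 and 4329 CPM, 27.8-fold (24.6 to 31.5). Isg20, an exonuclease, stood at 26.8 CPM in marrow and 276 CPM in tumor, 10.3-fold higher (8.80 to 12.1). Ifi211 was 8.0-fold higher (5.87 to 11.2), or 1.05-fold with the strict gate. For antigen presentation, 20 of 21 members were measured, with 11 higher and 2 lower, against 12.7% and 49.7% of all genes. Among the 9 members at least as high as in the other barcodes of the tissue, 2 were higher and 2 lower. Their median log2 ratio was 0.20, which lay 1.22 above the median of all such genes. Over all measured members the list's median log2 ratio was 1.14, or 0.50 with the strict gate and 0.45 without barcodes over 10000 UMIs. H2-Ab1, a class II chain, stood at 42.0 CPM in marrow and 314 CPM in tumor, 7.47-fold higher (6.59 to 8.51), or 3.18-fold without barcodes over 10000 UMIs, and Cd74, the class II invariant chain, at 118 CPM in marrow and 846 CPM in tumor, 7.18-fold higher (6.66 to 7.75), or 2.11-fold. The other tumor barcodes held 1469.6 and 3759.8 CPM, and the dendritic cell marker sum of the tumor gate was 639 CPM in place of 1563 without those barcodes. The class I genes H2-D1 and B2m differed by less than 2-fold.

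Stress, survival and regulatory genes leaned higher. Of the immediate early and heat shock genes, which also answer to cell handling, 33 of 33 members were measured, with 21 higher and 2 lower. Hspa1a, which shares near-identical sequence with Hspa1b, stood at 5.56 CPM in marrow and 2154 CPM in tumor, 387-fold higher (277 to 559.5), or 610.3-fold without barcodes over 10000 UMIs. Atf3, a stress-induced transcription factor, stood at 15.4 CPM in marrow and 1009 CPM in tumor, 65.6-fold higher (53.6 to 81.3). Of the survival and apoptosis genes, 26 of 27 members were measured, with 14 higher and 5 lower, against 12.7% and 49.7% of all genes. Bcl2a1b, one of several near-identical copies of an anti-apoptotic gene, stood at 9.16 CPM in marrow and 1360.0 CPM in tumor, 149-fold higher (114 to 197), and Mcl1, on which neutrophil survival depends, at 1749 CPM in marrow and 4054 CPM in tumor, 2.32-fold higher (2.27 to 2.37). Cdkn1a, the cell cycle inhibitor p21, stood at 8.50 CPM in marrow and 1661 CPM in tumor, 195-fold higher (149 to 262). Of the myeloid transcription factors, 33 of 36 members were measured, with 13 higher and 10 lower, or 19 and 5 with scaling to the median gene. Gfi1, described above, was among those lower. Cebpb, the C/EBP factor of emergency granulopoiesis, stood at 2187 CPM in marrow and 5417 CPM in tumor, 2.48-fold higher (2.43 to 2.52), and Maff at 1.96 CPM in marrow and 346 CPM in tumor, 176-fold higher (101 to 341). Of the prostaglandin and leukotriene genes, 12 of 16 members were measured. Of these, 2 (16.7%) were higher and 5 (41.7%) lower, near the 12.7% and 49.7% of all genes. The list's median log2 ratio of −0.77 turned to 0.22 with median scaling. With the strict gate 1 of 11 measured members was higher and 6 were lower, against 10.0% and 63.1% of all genes. The list's median was then −0.51 from the all-gene median, and −0.36 from it without barcodes over 10000 UMIs. Alox5, which starts leukotriene synthesis, stood at 238 CPM in marrow and 26.7 CPM in tumor, 8.91-fold lower (7.98 to 9.95), or 5.79-fold with the strict gate, beside the higher Ptgs2. Of the lysosomal genes, 19 of 19 members were measured, with 9 higher and 3 lower, with Cstb, a cathepsin inhibitor, at 113 CPM in marrow and 1545 CPM in tumor, 13.6-fold higher (12.6 to 14.7). Among the 7 members at least as high as in the other barcodes of the tissue, 2 were higher and 1 lower. The list's median log2 ratio was −0.23 over these, in place of 0.85.

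A rule on size named further genes, taken from measured genes at 100 CPM or more whose level in the neutrophils was at least that of other barcodes of the same tissue. Among the 12 highest ratios were Saa3, serum amyloid A3, with 1 UMI in marrow and 157 CPM in tumor, 963-fold (173 to 38035), or 285-fold without barcodes over 10000 UMIs. Csf3, the neutrophil growth factor G-CSF, had no UMI in marrow and 147 CPM in tumor, at least 300.2-fold higher. Atp6v0c, a proton pump subunit, stood at 4.09 CPM in marrow and 2291 CPM in tumor, but also at 2.05 and 676 CPM in T cells of marrow and tumor. Among the 12 lowest, Megf9 stood at 141 CPM in marrow and 3.76 CPM in tumor, 37.5-fold lower (28.8 to 49.7), and Rab3d, a GTPase of secretory vesicles, at 248 CPM in marrow and 5.04 CPM in tumor, 49.3-fold lower (39.3 to 62.6), or 74.3-fold without barcodes over 10000 UMIs. Cfap43 and Gpr27 stood at 231 and 128 CPM in marrow with 2 UMIs each in tumor, and at 43.7 and 19.1 CPM in marrow T cells against 0.103 and 0 in tumor T cells. For these 3 genes, tissue and the gene reference used for each tissue's matrix cannot be told apart.

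Levels also varied with S100a9 inside each gate, a description because S100a9 chose the cells. In KO tumor, from the band at 0.5 to 2% to the band at 8% or more, Retnlg went from 149 to 2356 CPM and Cxcr2 from 161 to 526. Over the same bands Cd74 went from 1434 to 225 CPM and Cd3e from 21.6 to 1.14, so that these RNAs of antigen-presenting and T cells stood higher in the low band. Cxcl2 stood at 36872 and 40367 CPM in these bands and Il1b at 13644 and 20832. In the highest tumor band Retnlg was still below the 6936 CPM of the lowest marrow band (4 to 8%), and Ccl3, at 4785 CPM, was above every marrow band, of which the highest held 36.8. In marrow, Il1b went from 803 CPM at 4 to 8% to 298 at 16% or more, and Mmp8 from 907 to 4735.

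**Figure D5:**
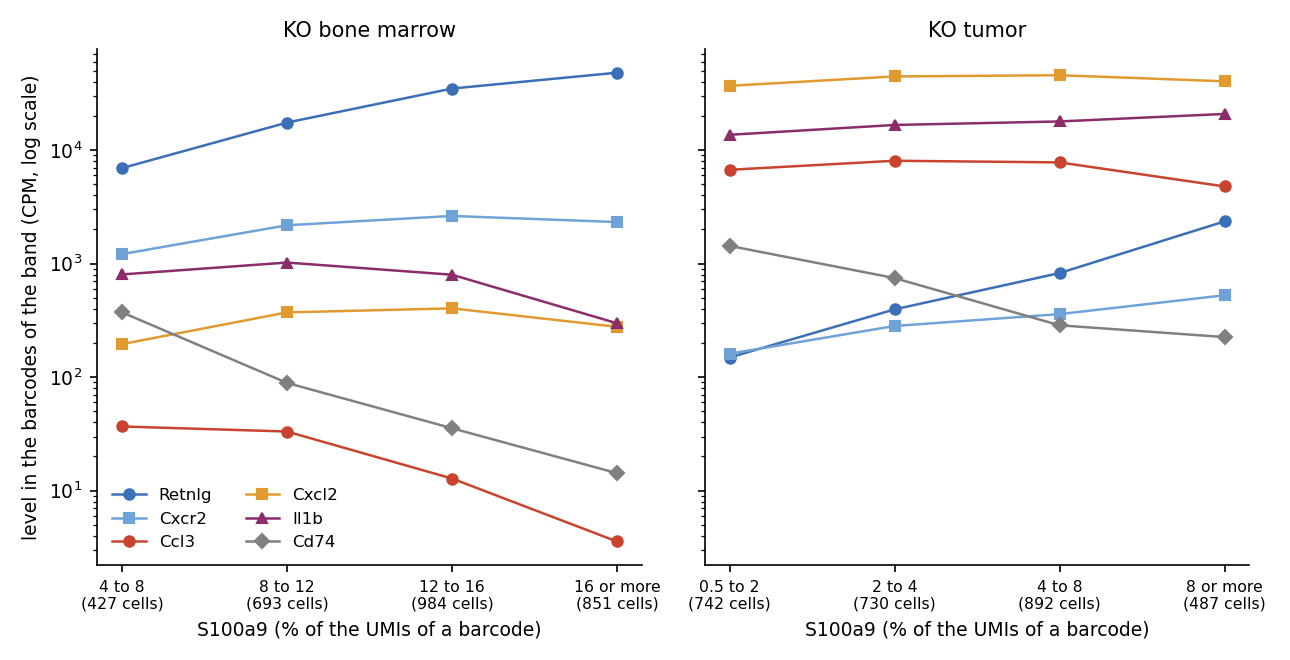
Levels of 6 genes (vertical axis, CPM, log scale) in 4 bands of S100a9 (horizontal axis, percent of the UMIs of a barcode, with the number of barcodes) for KO bone marrow on the left and KO tumor on the right. Lines join the bands of a gene within 1 library. In tumor, Retnlg is higher and Cd74 lower in the bands of higher S100a9, while Cxcl2 and Il1b stay high in all 4 bands.

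WT neutrophils showed most of these differences in the same direction. By the same gates and filter, 5192 genes were measured in WT, with 680 (13.1%) higher and 2012 (38.8%) lower in tumor, 51.8% either way. Of 5166 genes measured in both genotypes, 542 were higher in KO, and 432 of these were also higher in WT, which is 79.7% of the KO set and 63.8% of the 677 in WT. Of 2556 lower in KO, 1805 were also lower in WT, 70.6% of the KO set and 90.4% of the 1996 in WT. None was higher in KO and lower in WT, and 5 were lower in KO and higher in WT. The WT tumor gate held 156 barcodes, 1.34% of the kept barcodes of its library, and its counting intervals are the wider for it. Monocyte markers stood at 10345 CPM in this gate, against 9516 in the other WT tumor barcodes and 4581 in the KO tumor gate. Dendritic cell markers stood at 4782 CPM, T cell markers at 811 and macrophage markers at 1119, against 1563, 251 and 1571 in KO. Barcodes with an Ms4a6c UMI held 41.6% of the WT tumor gate's UMIs, and 12 barcodes over 10000 UMIs held 31.4%. The part of these cells in the WT values was not tested. No difference between KO and WT was tested.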

How the data were processed

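Each of 4 libraries held CD45+ cells pooled from 3 mice, read by 10x Chromium. The deposited matrices hold counts of UMIs per gene and barcode. The file headers give Cell Ranger 3.1.0 for marrow and 6.0.2 for tumor, with 31053 and 32285 features. Mapping to mm10 (GRCm38) with Cell Ranger 6.1.2, and R 4.2.1 with Seurat 4.3.0, are listed in the submitters' processing notes. Features were joined by symbol (29814 shared), and tissue and processing cannot be told apart.

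Barcodes were gated as described, UMIs summed per gate and divided by their total without S100a8 and S100a9 (CPM). Intervals are exact conditional binomial (ratios) and Clopper-Pearson (shares) at 95%, with all UMIs taken as independent. Against 0 UMIs, a fold is a lower bound from 3 UMIs over the gate. With 1 library per group no test was made. Doublets were kept in the gates; scrublet marked 303 gated tumor and 215 gated marrow barcodes, and since its automatic threshold marked none in KO marrow and WT tumor, the highest scores at the expected rate (8.86% and 9.62%) were taken there. Scripts were checked on simulated counts (Python 3.11.15, scanpy 1.11.5, scipy 1.17.1). Named genes were a set list of neutrophil genes, the 12 highest and 12 lowest ratios of measured genes at 100 CPM or more with a level at least that of the other barcodes of the same library, and up to 6 members of each list, 4 by ratio and 2 by level. The members and lists were chosen with earlier results of these data known. The 15 alternatives covered scaling, filters, gates, depth, doublets and joining, 2 of them added after seeing the data.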

Additional observations from a re-analysis of the deposited data

How the results depend on the processing

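In KO, 891 genes were higher and 3483 lower in tumor neutrophils. Counts of higher and lower genes were 1741 and 1438 with scaling to the median gene, 1815 and 5992 without a filter on low values, 543 and 1575 with a stricter filter, and 505 and 1575 over genes at least as high as in the other barcodes of the tissue. In WT, 680 were higher and 2012 lower. These became 1196 and 1237 with median scaling, 349 and 1175 after thinning to 1000 UMIs, 1582 and 3486 without a filter, 319 and 785 with a stricter filter, and 337 and 1242 over genes at least as high as elsewhere. A strict gate left 406 higher in WT, and a loose gate gave 3121 lower. Fewer genes are tested under stricter filters, and the cause of the other moves was not tested. All other alternatives kept these counts within 1.5 times. Over genes at least as high as elsewhere, the median log2 ratio of the checkpoint list turned to −0.29 and the 1 G2 and M phase gene measured there, of 24, stood at 0.82. S100a4 turned to −0.091 and Cd36 to −0.60 with the strict gate, and C1qb, a gene of the gate, to −5.47 in tumor barcodes without C1q UMIs. Of 167 named genes, 148 differed by 2-fold or more, and 82 of these moved by over 1.5 times under at least 1 alternative. Scaling to the median gene was left out of this count, because it moves every ratio by the same factor, itself over 1.5. Leaving out a replicate was not possible with 1 library per group. No paired analysis was possible because each group is 1 library and the labels share no replicate numbers. The WT tumor gate is limited by its 156 barcodes and by RNA of other cells in it. WT marrow is limited by depth, with 515 of 1284 barcodes too shallow for thinning.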

Other observations

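Tumor neutrophils gave their UMIs to fewer genes. After thinning to 1000 UMIs, a median of 452 genes was seen per KO tumor barcode and 596 per KO marrow barcode, against 482.5 and 592 in WT. Platelet markers stood at 38.1 CPM in gated KO marrow and 477 in gated KO tumor, and at 92.6 in tumor with the strict gate. Among cytokine genes of low level, Il10 had no UMI in gated marrow and 11.4 CPM in gated tumor, at least 23.3-fold higher against a floor of 3 UMIs over the marrow gate. After thinning, Il10 was seen in 0.776% of KO tumor neutrophils and 1.24% of KO tumor T cells, and the source of this RNA was not tested. Tnfsf9, the ligand of the costimulatory receptor 4-1BB, stood at 2.29 CPM in marrow and 35.4 CPM in tumor, 15.5-fold higher (9.13 to 28.5), or 6.00-fold with the strict gate.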
